A study of Mus musculus with 4 samples.

Results

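The genes of MHC class II antigen presentation were followed across macrophages polarized in opposite directions and across macrophages in which the Lamtor1-mTOR pathway was blocked. They comprised the classical chains H2-Aa, H2-Ab1 and H2-Eb1, the invariant chain Cd74, the H2-DM chains H2-DMa, H2-DMb1 and H2-DMb2, the H2-DO chains H2-Oa and H2-Ob, and the transactivator Ciita. All 10 were found by name among the 23688 genes with a symbol on the array, on 13 of its 55681 non-control probes. Of these genes, 8 had 1 probe each, H2-Ab1 had 2 probes and H2-Ob had 3. In IL-4-polarized (M2) macrophages, Ciita, the classical chains, Cd74 and the H2-DM chains all had their highest normalized signal of the 4 conditions. With Lamtor1 deficient these genes kept between 11.4% and 26.7% of the M2 signal, leaving out H2-DMb2, which was not well above background there. With Torin1 they kept between 4.81% and 21.1%. H2-Oa and H2-Ob were not among these genes and were brightest in M1 and Torin1-treated macrophages, respectively.

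RNA came from 4 cultures of bone marrow-derived macrophages (BMDMs) of 10-week-old C57BL/6J mice, each grown for 6 days in L929 supernatant, a source of M-CSF, and stimulated for 2 days. The M1 culture was labelled wild type and was polarized by 20 ng/ml IFN-γ together with 100 ng/ml LPS. The M2 culture was labelled wild type and was polarized by 50 ng/ml IL-4. The other two received the same IL-4: a culture with the genotype p18 (2400001E08Rik) -/-, called Lamtor1-deficient here, and a wild-type culture with 250 nM Torin1, an ATP-competitive inhibitor of mTOR. No culture without cytokine is among these samples, and the labels do not say whether the wild-type mice carried floxed Lamtor1 alleles without Cre. In the study's methods the Lamtor1 alleles were floxed and deleted by Cre from the LysM locus, which is active in myeloid cells, so deletion is limited to that lineage and to its efficiency there.

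Each culture was measured on 1 Agilent 1-colour array, so no difference below has a replicate check, a test or a p-value. Signals are processed spot intensities divided by the 75th percentile of their own array, here called the normalized signal. That percentile was 287 on the M1 array and between 470.0 and 595 on the others, so a probe at background on both arrays came out about 0.8 higher (log2) in M1 than in M2, and the median of all genes was 0.75 higher. Between 50.9% and 55.4% of probes per array were well above background, and no spot was saturated. From probes spotted at least 8 times, log2 ratios had a technical SD of 0.10 for M1 over M2, 0.088 for Lamtor1-deficient over M2 and 0.093 for Torin1 over M2, and between 0.28 and 0.44 for dim probes. This SD holds the error of spots within an array and none of the variation between cultures. Every probe of the 10 genes had 1 spot per array, and none of these spots was marked as an outlier. Lamtor1 itself, listed as 2400001E08Rik, had a normalized signal of 1.55 in the Lamtor1-deficient culture and 66.3 in M2, so 2.34% was left.

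MHC class II molecules carry peptides from endosomes to the cell surface, where CD4+ T cells read them. An α and a β chain assemble in the endoplasmic reticulum on the invariant chain, which blocks the groove and takes the complex to endosomes. There proteases trim the invariant chain, H2-DM exchanges its last fragment for peptide, and H2-DO holds H2-DM in check. Transcription of the classical chains, the invariant chain and H2-DM depends on Ciita, a co-activator that binds no DNA itself. Ciita is recruited to the RFX, CREB and NF-Y proteins sitting on the X and Y boxes of class II promoters. IFN-γ is its classical inducer in macrophages, and IL-4 is known to raise class II molecules on mouse macrophages.

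The start regions of the class II genes were read for the boxes at which Ciita acts. RefSeq windows of 300 bases, from 250 bases before the start to 50 after it (GRCm38.p6), were at hand for 7 of the 10 genes, and H2-Ab1, Cd74 and Ciita had no entry. The windows were searched on both strands for an X half-site, CNNGNAAC, and a Y box, GATTGG, and for the X letters followed on the same strand by the Y letters after 10 to 40 bases. These letters were chosen after the windows had been read, so their presence is a description. The pair lay on the gene's strand of H2-Aa, H2-Eb1, H2-DMb1, H2-Oa and H2-Ob. The stretches that hold it follow, 5′ to 3′, with both motifs in capitals, and with the matching stretch of H2-DMb2, where only the Y box is in capitals.
H2-Aa, chr17:34287862-34287912, minus strand: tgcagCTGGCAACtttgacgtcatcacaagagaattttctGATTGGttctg
H2-Eb1, chr17:34305768-34305817, plus strand: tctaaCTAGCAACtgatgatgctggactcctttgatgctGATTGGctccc
H2-DMb1, chr17:34153089-34153139, plus strand: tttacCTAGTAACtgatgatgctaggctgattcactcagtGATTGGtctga
H2-DMb2, chr17:34145119-34145168, plus strand: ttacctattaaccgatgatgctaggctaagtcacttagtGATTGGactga
H2-Oa, chr17:34092295-34092345, plus strand: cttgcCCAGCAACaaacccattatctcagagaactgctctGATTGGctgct
H2-Ob, chr17:34238810-34238857, plus strand: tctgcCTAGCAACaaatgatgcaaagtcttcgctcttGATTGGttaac

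The X letters alone were found in 39.1% of all 32851 RefSeq windows and the Y letters in 16.1%, whereas the pair was found in 0.411%. In these 5 genes the gap was 24 to 27 bases and the Y box began 44 to 62 bases before the start. H2-Eb2, an I-E β chain gene outside the set, also held the pair, with a gap of 26 bases and its Y box 101 bases before the start. H2-DMb2 had both sets of letters in its window but not as a pair at this distance. Over the whole windows H2-DMb1 and H2-DMb2, neighbours on chromosome 17, were identical at 61.4% of 342 aligned positions. Neither of the 2 entries of H2-DMa held the pair. The pair was present before H2-Aa, H2-Eb1 and H2-DMb1, which were lower in Lamtor1-deficient and Torin1-treated BMDMs, and before H2-Oa and H2-Ob, which were not. H2-DMa and H2-DMb2 were lower as well and did not hold it. Whether these boxes have a part in the differences between cultures was not tested.

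**Figure D1:**
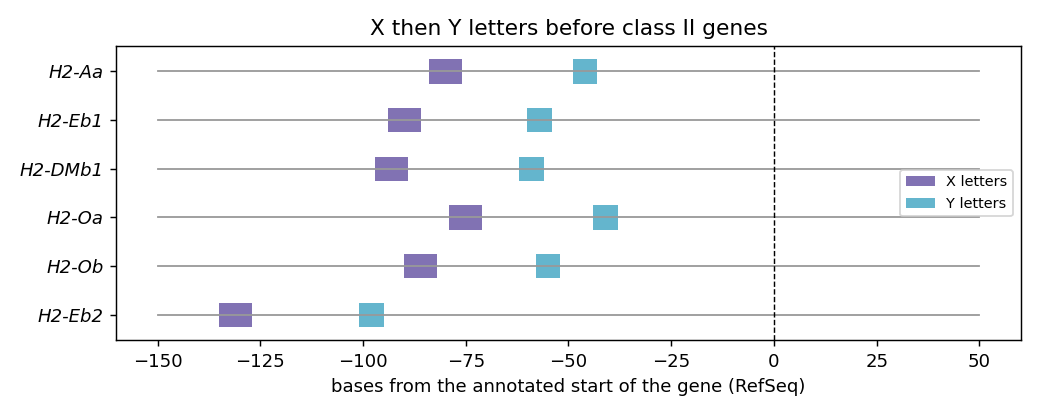
Position of the X and Y letters in the RefSeq windows of the 5 class II genes of the set that hold the X letters followed by the Y letters, and of H2-Eb2. The x axis gives bases from the annotated start (dashed line). The Y letters begin 44 to 62 bases before the start in the 5 genes and 101 bases before it in H2-Eb2, and 24 to 27 bases separate them from the X letters.

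Ciita is the master regulator of the classical chains, the invariant chain and H2-DM. Its probe (chr16:10526568-10526627, mm9) had a normalized signal of 0.676 in M2, 0.236 in M1, 0.126 without Lamtor1 and 0.104 with Torin1, well above background on all 4 arrays. The M2 culture stood above the other three. Its signal was 5.38-fold lower in Lamtor1-deficient BMDMs (log2 ratio −2.43, technical SD 0.088) and 6.53-fold lower with Torin1 (−2.71, technical SD 0.093). In M1, where IFN-γ was given, it was 2.86-fold lower than in M2 (−1.52, technical SD 0.10). When the background was corrected by normexp with an offset of 50, the log2 ratios shrank to −1.61 without Lamtor1, −1.68 with Torin1 and, short of 2-fold, −0.84 in M1. The probe is rich in A, which makes up 65.0% of its 60 bases.

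The classical chains form the peptide groove itself. H2-Aa, the α chain of I-A, had a normalized signal of 148 in M2, 18.0 in Lamtor1-deficient, 12.1 in Torin1-treated and 8.93 in M1 BMDMs (chr17:34421285-34421344, mm9). M2 stood far above the rest, and M1 was lowest. The ratios to M2 were 8.25-fold lower in Lamtor1-deficient BMDMs, 12.3-fold lower with Torin1 and 16.6-fold lower in M1. H2-Eb1, the β chain of I-E, had 514 in M2, 80.7 in Lamtor1-deficient, 77.1 in Torin1-treated and 62.1 in M1 BMDMs (chr17:34453075-34453134). The Lamtor1-deficient and Torin1-treated cultures lay within the technical error of each other for this gene, at a log2 difference of 0.066 against a technical SD of 0.093. Both were more than 6-fold below M2, by 6.37-fold and 6.66-fold, and M1 was 8.28-fold below it.

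H2-Ab1, the β chain of I-A, kept more of its signal than its partner chain. Its main probe (chr17:34406296-34406355, mm9) had 408 in M2, 187 in M1, 109 without Lamtor1 and 86.1 with Torin1. Against M2 this was 2.18-fold lower in M1, 3.74-fold lower in Lamtor1-deficient BMDMs and 4.73-fold lower with Torin1. Here the M1 culture was second highest, but with arrays shifted to their median it fell below the Lamtor1-deficient culture, at log2 ratios of −1.94 and −1.84, so the order of these cultures depends on the scaling. The other H2-Ab1 probe gave the same order, with 427, 159, 88.2 and 72.4, and larger folds of 2.69, 4.84 and 5.89. The probes overlap by 51 bases and differ there at a single base, T51C, counted from the 5′ end of the main probe. The shared 30 bases around it are shown with that base in capitals, since the probes are otherwise readings of the same stretch.
H2-Ab1 main probe, bases 31 to 60: agattacaaataaacgagacTcagactctg
H2-Ab1 other probe, bases 22 to 51: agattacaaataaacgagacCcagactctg

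Cd74, the invariant chain, is encoded on another chromosome than the chains it escorts and followed them closely (chr18:60972075-60972132, mm9). Its normalized signal was 514 in M2, 131 in M1, 84.7 without Lamtor1 and 68.7 with Torin1. M2 again stood apart. M1 came next here but fell below the Lamtor1-deficient culture when arrays were shifted to their median, at log2 ratios of −2.79 and −2.54. The signal was 3.92-fold lower in M1 (log2 ratio −1.97), 6.07-fold lower in Lamtor1-deficient BMDMs (−2.60) and 7.48-fold lower with Torin1 (−2.90). Across the classical chains and Cd74 the median log2 ratio was −2.51 in M1, −2.64 without Lamtor1 and −2.82 with Torin1.

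H2-DM is the chaperone that loads peptide, and its chains H2-DMa and H2-DMb1 were lower with Torin1 than without Lamtor1. H2-DMa, its α chain, had a normalized signal of 34.1 in M2, 23.0 in M1, 3.88 without Lamtor1 and 1.64 with Torin1. Its probe is split over 564 bases of the genome (chr17:34274300-34274863, mm9). M1 was close to M2, at 1.48-fold lower, while Lamtor1-deficient BMDMs were 8.79-fold lower and Torin1-treated BMDMs 20.8-fold lower. Of these ratios only that of M1 changed its side of 2-fold with the scaling, as it was −0.57 (log2) here and −1.39 when arrays were shifted to their median.

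H2-DMb1, a β chain of H2-DM, had 109 in M2, 42.7 in M1, 28.7 without Lamtor1 and 7.89 with Torin1 (chr17:34297109-34297168, mm9). It was 3.81-fold lower without Lamtor1 and 13.9-fold lower with Torin1. M1 lay above the Lamtor1-deficient culture, but below it when arrays were shifted to their median (log2 ratios of −2.18 and −1.87). H2-DMb2, the other β chain, was seen in M2 BMDMs alone. Its normalized signal was 0.234 in M2 and not well above background in the other three, at 0.0148 in M1, 0.00852 without Lamtor1 and 0.00757 with Torin1 (chr17:34284764-34284823). Set against the lowest signal that counted as well above background, it was at least 3.57-fold lower in M1, at least 6.25-fold lower in Lamtor1-deficient BMDMs and at least 6.98-fold lower with Torin1. These bounds hold for the processed signals, and with normexp the log2 ratios were −0.71, −1.45 and −1.32, respectively.

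H2-DO, the inhibitor of H2-DM, was not lower with the rest of the group. H2-Oa had a normalized signal of 4.79 in M1, 0.650 in Torin1-treated, 0.208 in Lamtor1-deficient and 0.101 in M2 BMDMs (chr17:34232033-34232092, mm9). The M2 culture came last. H2-Oa was 47.7-fold higher in M1 than in M2 (log2 ratio 5.58), 6.46-fold higher with Torin1 (2.69) and 2.06-fold higher without Lamtor1 (1.05). The last of these fell short of 2-fold, at 0.98 and 0.63 (log2), when the 75th percentile was taken over probes bright on all 4 arrays and with normexp. Normexp gave 4.42 in M1 and 1.87 with Torin1.

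For H2-Ob, the β chain of H2-DO, 1 of 3 probes gave a reading. It lies across 369 bases of the genome (chr17:34380481-34380849, mm9) and had 0.382 in Torin1-treated, 0.302 in M1, 0.0522 in M2 and 0.0441 in Lamtor1-deficient BMDMs, the last not well above background. M1 and Torin1-treated BMDMs were above the other two, by 5.78-fold for M1 over M2 and by 7.30-fold for Torin1 over M2. With normexp these log2 ratios went from 2.53 to 1.56 and from 2.87 to 1.62. M2 and Lamtor1-deficient BMDMs differed by 0.25 (log2), within the technical SD of 0.28. The other two probes of H2-Ob were not well above background on any array, so the change of H2-Ob rests on a single spot per array.

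**Figure D2:**
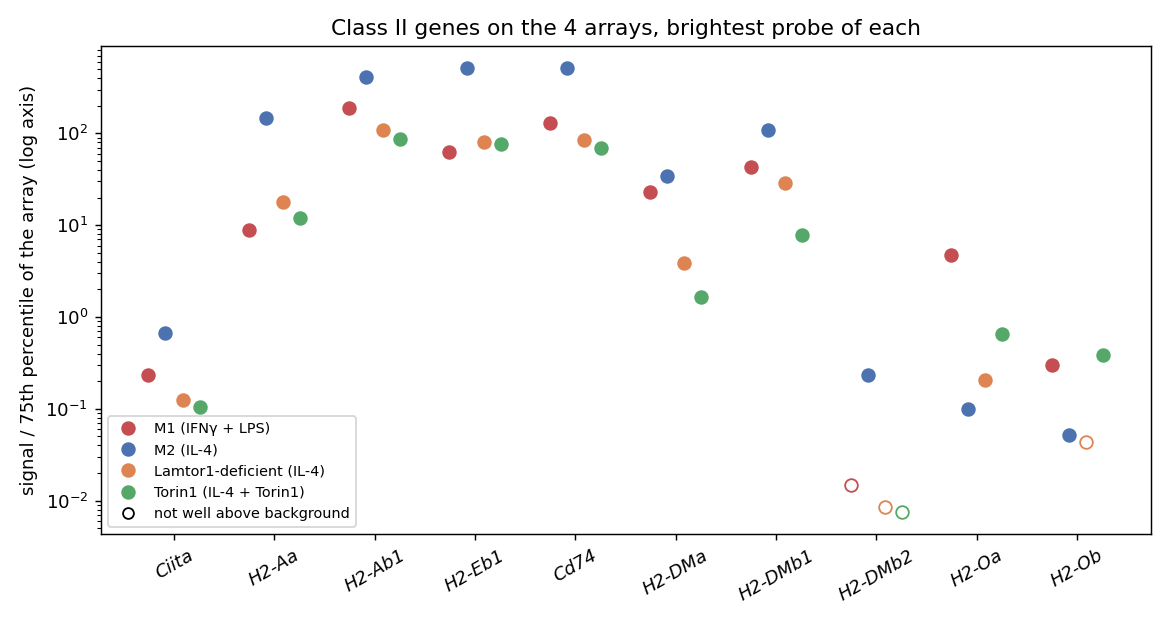
Normalized signal (processed signal over the 75th percentile of the array, log axis) of the brightest probe of each class II gene, 1 point per array. Hollow points were not well above background. The M2 array is highest for 8 of the 10 genes, from Ciita to H2-DMb2, and H2-Oa and H2-Ob are highest in M1 and in Torin1-treated BMDMs.

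Counted together, 8 of the 10 genes were at least 2-fold lower in Lamtor1-deficient than in M2 BMDMs, where 8.74% of 23660 genes were. H2-Oa was the single gene at least 2-fold higher, against 8.88% of all genes. The median log2 ratio of the 10 genes was −2.51, beside 0.043 over all genes. With Torin1, 8 of the 10 were lower, where 11.7% of all genes were, and H2-Oa and H2-Ob were higher, where 14.3% were. The median was −2.82, beside −0.051 over all genes. In M1, 7 were lower, where 19.2% of genes were, and 2 were higher, where 30.7% were, with H2-DMa between, and the median was −1.44 beside 0.75.

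The shares were similar among genes well above background on both arrays compared. In Lamtor1-deficient BMDMs 7 of 8 such class II genes were lower, where 7.80% of genes of this kind were. With Torin1 it was 7 of 9, where 13.1% were, and in M1 6 of 9, where 25.3% were. The comparisons of Lamtor1-deficient, Torin1-treated and M1 BMDMs all use the same M2 array, so their likeness is not independent evidence.

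**Figure D3:**
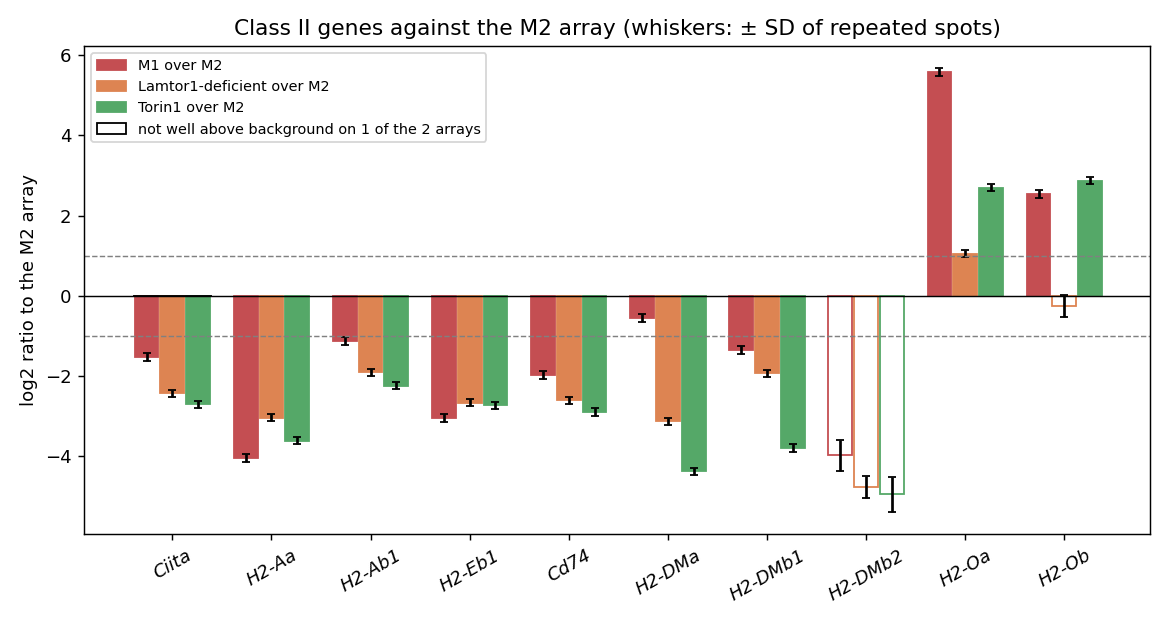
Log2 ratio of each class II gene to the M2 array for M1, Lamtor1-deficient and Torin1-treated BMDMs, with the technical SD of repeated spots as whiskers and 2-fold as dashed lines. Hollow bars were well above background on 1 of the arrays compared, so that those of H2-DMb2 stand for bounds of at least 3.57-fold to 6.98-fold. The bars from Ciita to H2-DMb2 point down and those of H2-Oa up.

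The Torin1-treated and Lamtor1-deficient cultures can be compared without the M2 array. Ciita, the classical chains and Cd74 differed by less than 2-fold, with log2 ratios between −0.57 for H2-Aa and −0.066 for H2-Eb1. The value of H2-Eb1 was within its technical SD and changed sign with the scaling, to 0.10 after quantile normalization and 0.086 with the percentile over bright probes. H2-DMa was 2.37-fold lower with Torin1 (log2 ratio −1.24, technical SD 0.093) and H2-DMb1 3.63-fold lower (−1.86). H2-Oa was 3.13-fold higher with Torin1. H2-Ob was at least 8.66-fold higher, which is its measured ratio, since its signal without Lamtor1 was above the lowest counted as well above background, and with normexp the log2 ratio was 1.59 in place of 3.11. Of the 10 genes, 2 were thus at least 2-fold lower, where 11.6% of all genes and 12.9% of those bright on both arrays were. Another 2 were higher, where 12.8% of all genes were.

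The class II genes outside this set were H2-Eb2 and H2-Ea-ps. H2-Eb2 was well above background in M1 and Torin1-treated BMDMs and not in the other two, as H2-Oa and H2-Ob were brightest there. It was at least 4.63-fold higher in M1 than in M2 and at least 2.74-fold higher with Torin1. H2-Ea-ps, the pseudogene of the I-E α chain, was not well above background on any array.

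Of the proteins that Ciita joins on DNA, 7 were measured. Their median log2 ratio was −0.081 without Lamtor1 and 0.26 with Torin1, beside 0.043 and −0.051 over all genes. Without Lamtor1 only Rfx5, the large RFX subunit, passed 2-fold, where 8.74% of all genes were lower and 8.88% higher. Its brightest probe was at background level in both cultures compared, so no ratio is given. Its other probe was well above background in M2 and not without Lamtor1, at least 1.06-fold lower. Rfxap, another RFX subunit, had log2 ratios of −0.90 without Lamtor1, −0.94 with Torin1 and −1.46 in M1. Rfxank, the third RFX subunit, had 0.64, 0.76 and 1.61, past 2-fold in M1 alone. Creb1, which binds the X2 part of the box, had −1.18 with Torin1 and −0.081 without Lamtor1 on its brightest probe but −0.34 and −0.68 on its other, so no contrast is drawn. The NF-Y subunits Nfya, Nfyb and Nfyc stayed within 0.33 (log2) of M2 in both.

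Of 14 measured signals and factors that lead to Ciita, 2 were at least 2-fold lower and none higher without Lamtor1, where 8.74% and 8.88% of all genes were. With Torin1 5 were lower and 2 higher, where 11.7% and 14.3% of all genes were. Prdm1, a repressor of Ciita, was lower without Lamtor1 (log2 ratio −1.50) and higher with Torin1 (1.40). Irf2, the other gene lower without Lamtor1, had −1.05 there and −0.12 with Torin1. Irf4, an IL-4-induced factor, had −0.75, short of 2-fold, and −1.65. Il4ra, the IL-4 receptor α chain, had −0.86 and −1.74, and −0.43 and −0.96 on its other probe. Stat6, which it activates, had 0.063 and 0.079 on its brightest probe, and its other two probes gave 0.87 and −0.51 with Torin1. Socs1, an inhibitor of JAK kinases, had −0.66 and −2.15, and Jak2 had −0.68 and −1.73.

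Irf1, which drives the IFN-γ-responsive promoter of Ciita, had log2 ratios of 3.74 in M1, 1.48 with Torin1 and 0.22 without Lamtor1. Its other probe, not well above background in M2, was at least 4.38-fold higher in M1 and at least 1.60-fold higher with Torin1, the latter short of 2-fold. The receptor chains Ifngr1 and Ifngr2 had −1.38 and −0.24 in M1, the kinase Jak2 −1.24, Irf2 had 0.12 and Irf8 −0.14.

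Of 8 endosomal genes, 6 proteases with the thiol reductase Ifi30 and the protease inhibitor Cst3, none was 2-fold lower or higher without Lamtor1 by its brightest probe, where 8.74% and 8.88% of all genes were, and their median log2 ratio was 0.13. The other probe of Ctsd, a cathepsin, was 2.51-fold higher there (log2 ratio 1.33). Ctss, the cathepsin that removes the invariant chain in these cells, had 0.080 without Lamtor1, 0.31 with Torin1 and 0.76 in M1. Ifi30 was the single gene of the list to pass 2-fold with Torin1 (−1.11), where 11.7% of all genes were lower and 14.3% higher. It had −0.14 without Lamtor1. Of 3 genes of class II turnover, the ligase March8 had −1.46 in M1, 0.32 without Lamtor1 and −0.94 with Torin1, and Cd83, which opposes March1, had −1.55, −0.23 and −0.62. March1, the ligase that sends class II molecules to degradation, gave opposite readings. Its brightest probe had −1.36 without Lamtor1 and −3.24 with Torin1, and its other probe 0.32 and 2.21, so no direction is given.

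Class I presentation, the pathway for cytosolic peptides, served as a contrast. Psmb9, Tap1, Psmb8 and Tap2, which make and carry class I peptides, lie between H2-DMb1 and H2-Ob on chromosome 17. None was 2-fold different without Lamtor1, with log2 ratios of 0.017 to 0.28, where 8.74% of all genes were lower and 8.88% higher. With Torin1 they were between 0.53 and 1.45, Tap2 alone passing 2-fold, where 14.3% of all genes were higher. In M1 they were between 2.41 and 3.16, where 30.7% of all genes passed 2-fold upward. Of 6 further class I genes, none was 2-fold lower without Lamtor1 or with Torin1, where 8.74% and 11.7% of all genes were. Tapbp, which helps to load class I, was 2.33-fold higher with Torin1, and 5 of the 6 were higher in M1, where 30.7% of all genes were. Nlrc5, the class I counterpart of Ciita, had 3.33 in M1 and 0.36 with Torin1 on its brightest probe, and 3.77 and 0.61 on its other. Without Lamtor1 the probes gave 0.65 and −0.26, so no direction is given there.

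Along chromosome 17, the stretch from H2-K1 to Notch4 held 25 measured genes, of which 8 belong to the set and 17 do not. Among the 14 others bright on both arrays, 1 was at least 2-fold lower without Lamtor1 (Col11a2, a collagen chain, log2 ratio −1.30) and 0 with Torin1, where 7.80% and 13.1% of all genes bright on both arrays were. Higher were 1 without Lamtor1, the butyrophilin-like gene Btnl2 (4.04), and 2 with Torin1, Tap2 and Btnl2, where 8.88% and 14.3% of all genes were. In M1, 0 of 14 were lower, where 25.3% of all genes bright on both arrays were. Another 8 were higher, where 30.7% of all genes, dim ones included, were. The class II genes with lower signals sat in 2 runs, H2-DMa to H2-DMb1 and H2-Ab1 to H2-Eb1, divided by the class I genes and H2-Ob, and Col11a2 lay outside both.

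**Figure D4:**
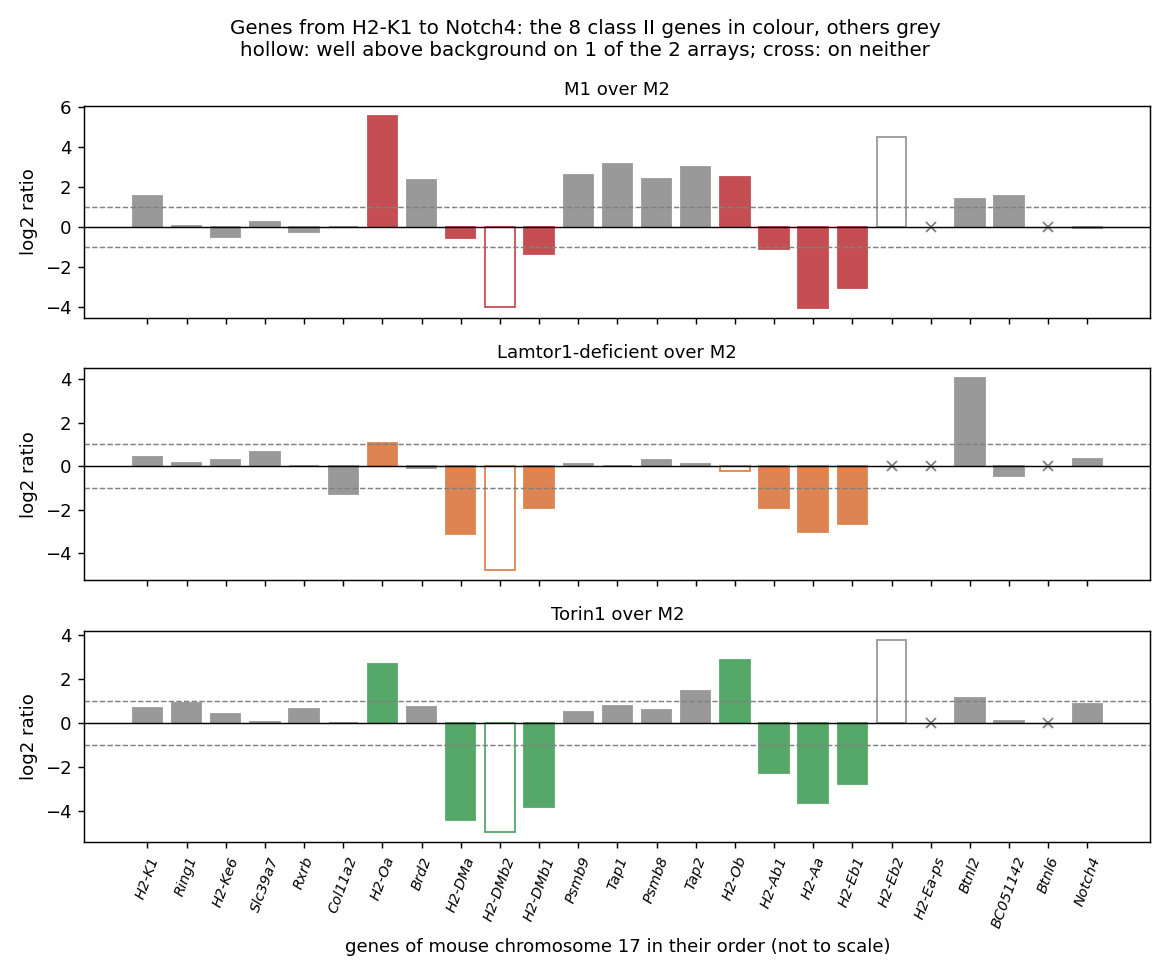
Log2 ratios to the M2 array of the genes from H2-K1 to Notch4 in their order on mouse chromosome 17 (not to scale), with 1 panel for each comparison. Coloured bars are class II genes of the set, grey bars other genes, hollow bars (measured ratios, of which the bounds are in the text) were well above background on 1 of the arrays compared and crosses on neither. Psmb9, Tap1, Psmb8 and Tap2 sit between 0.017 and 0.28 without Lamtor1, flanked by H2-DMb1, which is 3.81-fold lower, and by H2-Ob, at −0.25.

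Among 12990 other genes bright on all 4 arrays, those nearest in pattern to the classical chains and Cd74 were found by the distance over the 3 log2 ratios to M2, which share that array. They were Ankrd34a at 0.15, Gm4736 at 0.58, Kmo at 0.60, Cysltr1 at 0.63 and Mef2c at 0.69 (log2 units). Kmo, kynurenine 3-monooxygenase, had log2 ratios of −2.75 in M1, −3.16 without Lamtor1 and −2.96 with Torin1. Cysltr1, a leukotriene receptor, had −2.19, −2.26 and −3.21, and Mef2c, a transcription factor of myeloid and lymphoid cells, −3.10, −2.58 and −2.47. On the same measure the genes that define the pattern lay at 0.55 (H2-Eb1 and Cd74), 1.67 (H2-Ab1) and 1.78 (H2-Aa), and of the other members Ciita lay nearest, at 1.02, and H2-DMb1, H2-DMa, H2-DMb2, H2-Ob and H2-Oa further away, from 1.67 up. After quantile normalization 1 of these 5 genes was still among the nearest 5.

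Markers of other cells that carry or lack class II molecules were read on the same arrays, and in such bulk RNA fewer cells of a type and less RNA per cell cannot be told apart. Macrophage markers were all well above background on every array (7 of 7), with a summed normalized signal of 690.4 in M2, 543 with Torin1, 468 without Lamtor1 and 404 in M1. Csf1r, the M-CSF receptor, made up most of that sum in M2, with 485. At least 2-fold lower were 3 of the 7 without Lamtor1 and 2 with Torin1, where 8.74% and 11.7% of all genes were. Fcgr1, an Fc receptor, had log2 ratios of −4.96 and −4.61, and Cd14, the LPS co-receptor, −1.86 and 0.00078. Emr1, which encodes F4/80, was lower along with the class II genes, with log2 ratios of −2.57 without Lamtor1 and −2.81 with Torin1, and Cd68 was not (0.55 and 0.70). Neutrophil markers, of cells that carry little class II, were lower in all 3 conditions (5 of 5 each), where 8.74% of all genes were without Lamtor1, 11.7% with Torin1 and 19.2% in M1. Their summed normalized signal was 85.5 in M2 and between 4.39 and 6.16 in the others, and S100a9 had −4.74 without Lamtor1, −4.77 with Torin1 and −5.57 in M1. What part this difference between cultures has in the class II values was not tested.

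Dendritic and B cells carry much class II. Of 9 B cell markers, 4 or 5 per array were well above background. Ms4a1, which encodes CD20, and the kinase Blk were not well above background on any array, and the summed normalized signal was 3.30 in M2, 2.33 without Lamtor1, 6.15 with Torin1 and 2.36 in M1. The B cell receptor chain Cd79a had −1.84 without Lamtor1 and −1.61 with Torin1, and its partner Cd79b −0.90 and −3.50. Cd22, an inhibitory receptor, had −0.33 and 1.48 and made up most of the summed signal with Torin1, at 5.69, and Ebf1, a B cell factor, had 1.08 and 0.28. Of 10 dendritic cell markers, Cd209a, Xcr1, Btla and Dpp4 were not well above background on any array, between 4 and 6 per array were, and their summed normalized signal was 393 in M2 and between 236 and 293 elsewhere. Itgax, which encodes CD11c and is also found on macrophages, made up most of that sum in M2 and had −0.54 without Lamtor1, −1.21 with Torin1 and −7.09 in M1. Siglech, a marker of plasmacytoid dendritic cells, had a normalized signal between 87.9 and 232 and was most of the sum in M1. Zbtb46, a dendritic cell factor, had −0.65 without Lamtor1, −0.89 with Torin1 and 3.07 in M1. Ccr7, a chemokine receptor, had 2.54 without Lamtor1 and 0.39 with Torin1, and Clec9a was at least 3.92-fold higher with Torin1 than in M2. T cell markers were well above background for 7 of 7 genes in the Lamtor1-deficient culture and for 4 in each other. Their summed normalized signal was 4.30 in M1, 3.60 without Lamtor1, 2.64 with Torin1 and 2.54 in M2. At least 2-fold higher than in M2 were 5 without Lamtor1, 1 with Torin1 and 3 in M1. Of all genes 8.88%, 14.3% and 30.7% were, respectively. Cd3d was at least 4.35-fold higher without Lamtor1 than in M2, while Cd3e and Cd4 had log2 ratios of −0.016 and 0.19 there. The part of dendritic, B and T cells in the class II values was not tested.

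**Figure D5:**
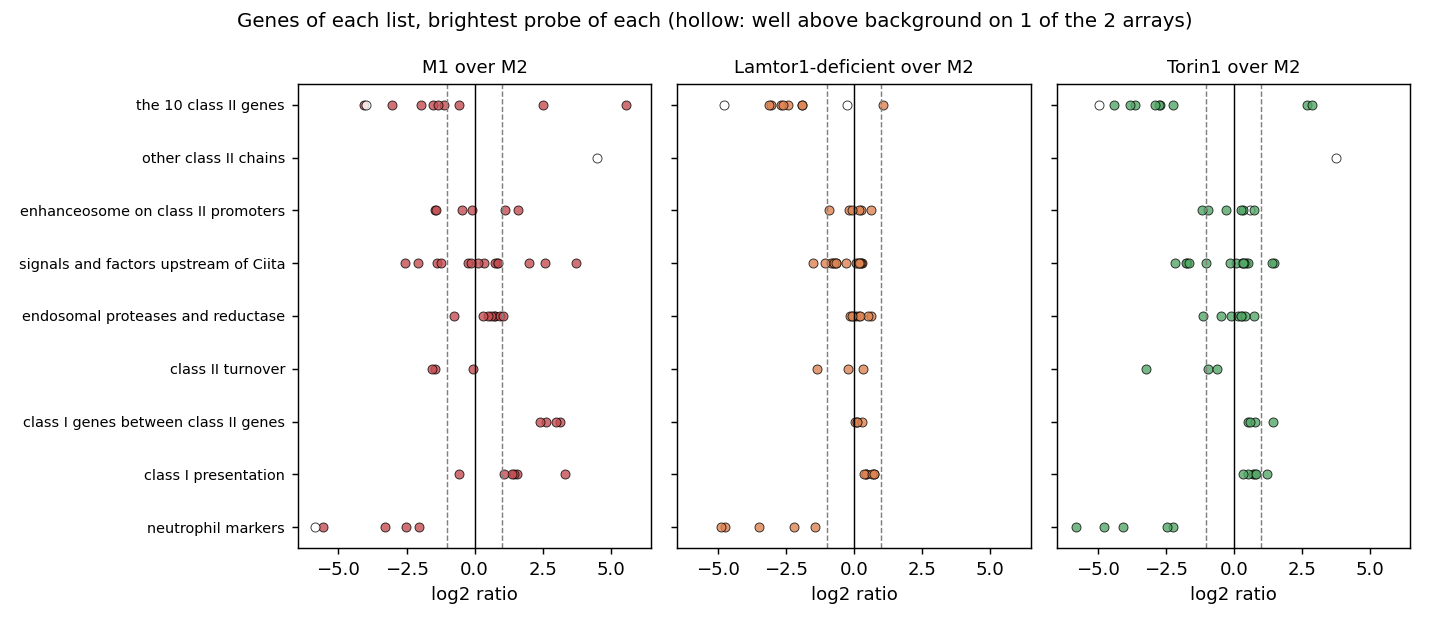
Log2 ratios to the M2 array of the genes of each list (rows), 1 point per gene (its brightest probe), for M1, Lamtor1-deficient and Torin1-treated BMDMs. Hollow points were well above background on 1 of the arrays compared, genes on neither are left out, and dashed lines mark 2-fold. Without Lamtor1 the endosomal genes and both class I lists stay between −0.14 and 0.74, while most class II genes and all neutrophil markers lie below −1.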

How the data were processed

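The authors hybridized Cy3-labelled cRNA of 4 BMDM cultures to an Agilent mouse array, 1 colour and 1 array per culture, all on the same slide and in the same scan. They deposited the spot intensities of Agilent Feature Extraction, as background-subtracted processed signals that are not normalized between arrays. The file headers name version 10.7.3.1 and the submitters' processing notes 10.5.1.1. A series table holds the same intensities, within 0.497% on each array.

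Here control spots and outlier spots (170 to 226 per array) were left out and the spots of a probe averaged. As in the study's methods, signals below 1.0 were raised to it and each array was shifted to its 75th percentile, on the log2 scale. The brightest probe (highest mean over the 4 arrays) stood for its gene. A gene counted as lower or higher at 2-fold. A probe well above background on 1 array of a pair gives a bound against the higher of its own signal and the lowest signal well above background on the dim array, and on neither, no fold. Such probes stay in counts and medians. Probe coordinates are those of the array files (mm9), and whether they fall in exons or untranslated regions was not analysed here. RefSeq sequences and gene order are from GRCm38.p6.

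The genes, gene lists and marker lists were chosen with earlier results of these data known. Named genes were Lamtor1, the 10 class II genes, the genes of the lists as far as a result turned on them, and the 5 genes nearest in pattern. Col11a2 and Btnl2 were named after their values were seen. Some items are not reported here. Alternatives were other scalings, normexp, filters on dim probes, a floor, other rules for several probes, a 3-fold threshold, outlier spots kept and the series table. The rule for calls recovered 200 of 200 genes planted at 3-fold in simulated arrays and called 0 of 9247 others. That checks the code against spot noise and says nothing of the variation between cultures. Only genes with bright M2 signals were drawn, above those of Ciita, H2-DMb2, H2-Oa and H2-Ob, so the check does not cover signals as low as theirs. Calculations used Python 3.11.15 with NumPy 2.4.6, pandas 2.3.3, Biopython 1.88 and matplotlib 3.10.9, and R 4.3.3 with limma 3.58.1.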

Additional observations from a re-analysis of the deposited data

How the results depend on the processing

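Of 280 log2 ratios (10 genes, 4 comparisons, 7 alternatives to the scaling, background or spots), 275 stayed on the same side of 2-fold and none of the called values changed sign. The exceptions were H2-DMa in M1 (median shift, −1.39), Ciita and H2-DMb2 in M1 (normexp, −0.84 and −0.71), and H2-Oa without Lamtor1 (0.98 and 0.63, as given above). Among values short of 2-fold, H2-Eb1 for Torin1 over Lamtor1-deficient became 0.10 (quantile) and 0.086 (percentile over bright probes), and with normexp H2-Ob without Lamtor1 became 0.029 and H2-DMb2 for Torin1 over Lamtor1-deficient 0.12. Under the median shift M1 fell below Lamtor1-deficient for H2-Ab1, Cd74, H2-DMb1 and H2-DMb2, the last also after quantile normalization and at background level in both. A shift to the median or to the percentile over bright probes moves all ratios of a comparison alike. The median shift moved them by −0.82 (log2) for M1 over M2 and by 0.065 for Lamtor1-deficient over M2. The cause of the changes with normexp and quantile normalization was not tested.

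The median log2 ratio of the 10 genes was −2.26 in M1, −3.07 with Torin1 and −0.60 for Torin1 over Lamtor1-deficient under the median shift, where the median of all genes moved by −0.82, −0.25 and −0.31. It was −1.73 in M1, −2.77 without Lamtor1, −3.22 with Torin1 and −0.16 for Torin1 over Lamtor1-deficient after quantile normalization, which moved the median of all genes in M1 by −0.81. It was −1.06, −1.92 and −2.49 for M1, Lamtor1-deficient and Torin1 with normexp. With the 75th percentile over bright probes it was −0.14 for Torin1 over Lamtor1-deficient, and with all 13 probes −2.28 without Lamtor1 and −2.71 with Torin1.

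At 3-fold, 4 genes were lower in M1, 0 higher without Lamtor1 and 1 lower for Torin1 over Lamtor1-deficient. Without Lamtor1, 0 genes were higher with the percentile over bright probes or with normexp. With the median over a gene's probes, 1 gene was higher in M1, with Torin1 and for Torin1 over Lamtor1-deficient, H2-Ob being lost. Among probes bright on both arrays, 1 was higher for Torin1 over Lamtor1-deficient. Of the 5 genes nearest in pattern, 1 was kept under quantile normalization, an alternative chosen after seeing the data. No paired analysis was possible because each condition had 1 array, so the groups share only the number 1. With 1 culture per condition, differences between cultures and between conditions cannot be told apart.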
